A study of Rattus norvegicus with 22 samples.

Results

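The protein kinase C isoforms of the rat were followed in the ventral part of the cervical spinal cord, 8 genes of the 32883 in the table of raw read counts. The members were the rows whose gene symbol is Prkca, Prkcb, Prkcd, Prkce, Prkch, Prkcq, Prkcz or Prkci. Each gene was measured in 22 adult Sprague-Dawley rats aged 3 to 4 months, with 1 RNA-seq library for each rat from spinal segments C3-C6, the stretch that holds the phrenic motor neurons of the diaphragm. The study asked how removal of the gonads alters gene expression in this tissue. There were 5 intact males, 5 castrated males (GDX), 6 intact females and 6 ovariectomized females (OVX). The GDX and OVX rats were operated under isoflurane after buprenorphine and their tissue was taken 2 weeks later, whereas the intact rats were controls of matched age for which no sham operation is described. All rats were perfused with cold saline under isoflurane and the dorsal part of each segment was discarded. Libraries held between 12371756 and 17571887 counted reads, with medians of 14196615 and 15645521 for intact and GDX males and of 14640726 and 14766802.5 for intact and OVX females.

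Protein kinase C is a family of serine and threonine kinases split by what switches them on. Conventional isoforms (Prkca, Prkcb) respond to calcium and diacylglycerol, a group without the calcium switch (Prkcd, Prkce, Prkch, Prkcq) to diacylglycerol alone, and atypical isoforms (Prkcz, Prkci) to neither. In the phrenic motor system, long-lasting facilitation after intermittent hypoxia runs through Gq-coupled serotonin receptors and PKC theta, the product of Prkcq, to BDNF, TrkB and ERK, whereas the facilitation that follows inactivity of the phrenic nerve needs atypical PKC.

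Markers of the tissue were present in every group. The motor neuron list was detected for 10 of 10 genes, and its most abundant gene, the intermediate filament Prph, averaged 224 ± 72.0 CPM (the reads of a gene relative to the TMM-scaled reads of its library; mean and SD, n = 5) in intact males and 282 ± 34.8 CPM (n = 6) in intact females. The acetylcholine-synthesizing enzyme Chat lay between 25.4 and 60.4 CPM over the 22 rats. Dorsal horn peptide genes were scarce, with a summed level for 7 genes of 12.4 ± 4.32 CPM in intact males and 9.10 ± 1.85 CPM in intact females, with Gal as the most abundant gene. T cell and lymphocyte markers, 8 genes in all, summed to 0.695 ± 0.156 CPM in intact males and 1.20 ± 0.552 CPM in GDX males, and none of them had enough reads to be tested.

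Libraries fell into a shorter and a longer class of average fragment size, as listed in the study's mapping records. The longer class held 3 of the 5 intact males, 4 of the 6 intact females and no GDX or OVX rat, so that in the longer class there was nothing to compare with intact rats. Among the intact rats, with sex as a term, edgeR called 1 of 14937 genes between the classes (0.00669%). None of the 8 isoforms was called there: edgeR gave 1 at an unadjusted p under 0.05, Prkcb, at a log2 fold change of -0.16 (SE 0.05, edgeR adjusted p 0.474) for the longer against the shorter class. DESeq2 was not run on this comparison.

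All 8 isoforms were detected in every rat and passed the filter on low counts in every comparison, so each was tested throughout. Counts per library ran from 56 to 136 for Prkch, the isoform with the fewest reads, and from 882 to 1354 for Prkcz. Lengths of the transcripts were not used, and levels of the isoforms are therefore compared between rats for 1 gene at a time and not between genes. In the marker lists, the most abundant gene is the one with the highest mean CPM, without regard to transcript length. Spread between rats was smallest for Prkci, with a coefficient of variation over all 22 rats of 4.94%, and largest for Prkch, at 15.2%. The summed level of the 8 isoforms was 351 ± 9.64 CPM for intact and 339 ± 10.3 CPM for GDX males, and 355 ± 7.71 CPM for intact and 363 ± 8.06 CPM for OVX females. These sums overlapped between each operated group and its intact controls.

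**Figure D1:**
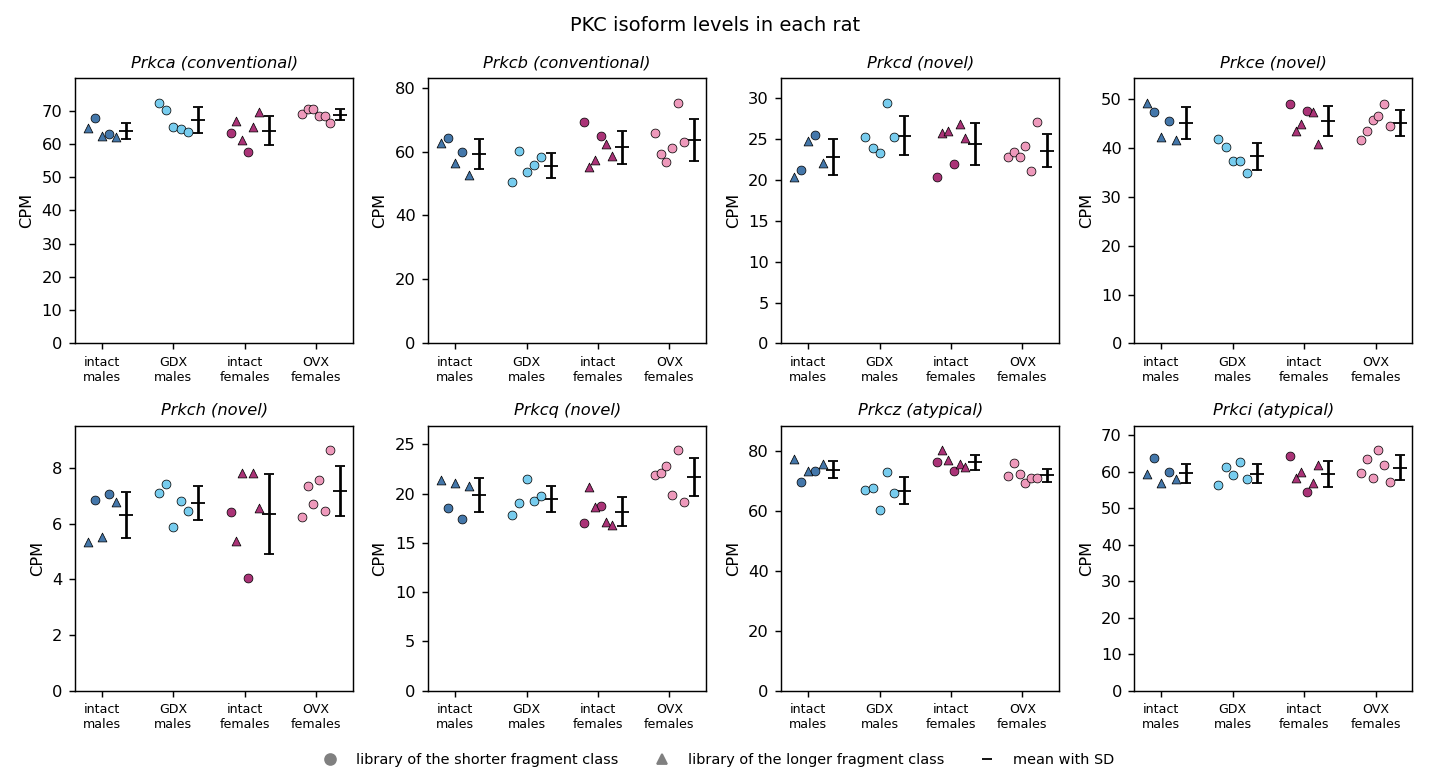
CPM of each PKC isoform in each of the 22 rats, by group (y axis from 0; circles are libraries of the shorter and triangles of the longer fragment class; bars are mean and SD). Prkce in GDX males sat between 34.8 and 41.8 CPM, with 4 of 5 rats under every intact male.

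Removal of the testes was followed by lower Prkce and Prkcz. Of the 8 isoforms, 2 were called by edgeR at an adjusted p under 0.1, beside 1995 of 14931 genes (13.4%), a background that a list of 8 genes cannot be set apart from. The same 2 isoforms were called by DESeq2.

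Prkce, which encodes PKC epsilon, is known in neurons for its part in transmitter release and in the sensitization of pain fibres. Its level in the intact males was 49.2, 47.3, 42.1, 45.4 and 41.6 CPM. In the GDX males it was 41.8, 40.1, 37.2, 37.4 and 34.8 CPM. The GDX rats formed the lower group, 4 of 5 lying under every intact male, and the groups overlapped only through the highest GDX rat and the lowest intact rat. Prkce averaged 45.1 ± 3.30 CPM in intact and 38.2 ± 2.73 CPM in GDX males, giving a log2 fold change of -0.24 (SE 0.06, 95% interval -0.38 to -0.11, edgeR adjusted p 0.0295). Leaving out each male in turn kept the call in 10 of 10 fits. Within the shorter fragment class, where 2 intact males remained, the log2 fold change was -0.28 and the edgeR adjusted p 0.109. As this is whole tissue, fewer cells of a type and less RNA per cell cannot be told apart.

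Prkcz encodes PKC zeta, an atypical isoform, and also the shorter and constantly active PKM zeta, which counts per gene do not separate from it. Its level was 77.4, 69.6, 73.4, 73.5 and 75.7 CPM in the intact males. The GDX males had 67.0, 67.8, 60.5, 73.1 and 65.99 CPM. Again 4 of 5 GDX rats lay under every intact male, and the remaining rat, the fourth in that list, lay within the intact range. The means were 73.9 ± 2.92 CPM and 66.9 ± 4.48 CPM, giving a log2 fold change of -0.15 (SE 0.05, 95% interval -0.26 to -0.04, edgeR adjusted p 0.0976). This call was close to the threshold: it held in 2 of 10 fits that left out 1 male, those without intact male 2 and without GDX male 5, with adjusted p from 0.0519 to 0.212 over the 10. With the fragment class as a term the log2 fold change was -0.10 and the edgeR adjusted p 0.457, and within the shorter class -0.10 and 0.511.

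The stretches around the transcription start of the 2 lower isoforms are shown because both members were lower in GDX males. RefSeq entries of build GRCr8 were found for 6 of the 8 isoforms, all but Prkcb and Prkch. Where a symbol had several entries the first was taken. Each window covers 1 start of its gene, and any transcript with another start, which counts per gene do not separate, is not covered. Each sequence runs from 250 bases before to 50 bases after the start, 5′ to 3′ on the minus strand, Prkce at chr6:14204239-14204538 and Prkcz at chr5:171212625-171212924. Capitals mark the GC box GGGCGG on either strand.
Prkce: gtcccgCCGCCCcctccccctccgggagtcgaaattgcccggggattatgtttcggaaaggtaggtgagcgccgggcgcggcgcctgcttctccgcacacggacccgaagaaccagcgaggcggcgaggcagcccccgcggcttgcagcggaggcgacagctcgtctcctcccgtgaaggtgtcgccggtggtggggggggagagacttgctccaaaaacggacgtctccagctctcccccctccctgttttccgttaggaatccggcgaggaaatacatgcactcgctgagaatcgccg
Prkcz: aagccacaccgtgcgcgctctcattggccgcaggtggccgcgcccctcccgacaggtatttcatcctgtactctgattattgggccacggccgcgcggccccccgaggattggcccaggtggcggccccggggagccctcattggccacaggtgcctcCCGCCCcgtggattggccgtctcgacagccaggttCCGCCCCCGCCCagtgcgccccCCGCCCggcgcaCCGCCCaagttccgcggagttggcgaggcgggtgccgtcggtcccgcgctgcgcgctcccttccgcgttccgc
The GC box was present 1 time for Prkce and 5 times for Prkcz, and 33.1% of all 33469 promoters in the table held it at least once. The core letters of the estrogen receptor element (GGTCA) and of the androgen receptor element (TGTTCT), searched on both strands, were in neither window. The same letters occurred in 40.5% and 20.7% of all promoters. Among the other members, Prkcd held each of these cores 1 time and 5 GC boxes, while Prkca, Prkcq and Prkci held GC boxes and neither core.

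The other 6 isoforms were not called in males. Prkca, the calcium-dependent PKC alpha, averaged 63.9 ± 2.46 CPM in intact and 67.1 ± 3.90 CPM in GDX males, and Prkcb, PKC beta, 59.2 ± 4.79 and 55.6 ± 3.83 CPM. The log2 fold change of Prkcb was -0.09 (95% interval -0.23 to 0.05, edgeR adjusted p 0.425), and it ran from -0.26 to -0.09 over 8 alternative fits. For Prkcd (PKC delta, which takes part in apoptosis and in glial signalling) the log2 fold change was 0.15 (SE 0.08, 95% interval -0.02 to 0.33, edgeR adjusted p 0.273). Prkch (PKC eta, found mainly in epithelial and endothelial cells) gave 0.09 with an interval from -0.17 to 0.35. The intervals of Prkcd and Prkch reach positive values as large as the drop of Prkce, and that of Prkcb nearly reaches that drop. No statement on absence of change follows for these genes. Prkcq, the PKC theta of phrenic facilitation, had 19.8 ± 1.74 CPM in intact and 19.5 ± 1.33 CPM in GDX males, giving a log2 fold change of -0.03 with an interval from -0.19 to 0.13. Over 8 alternative fits the log2 fold change of Prkcq ran from -0.14 to 0.11. Intact males averaged 17.99 CPM of Prkcq in the shorter and 21.1 CPM in the longer class. Prkci, the other atypical isoform, had 59.7 ± 2.60 and 59.5 ± 2.51 CPM, with an interval of its log2 fold change from -0.11 to 0.10. The log2 ratio of Prkcz to Prkci reads in the same library, a measure that depth does not enter, was 0.31 ± 0.11 in intact and 0.17 ± 0.08 in GDX males, and the ranges, 0.12 to 0.38 and 0.03 to 0.25, overlapped. In females this ratio was lower after OVX as well, 0.37 ± 0.09 in intact and 0.24 ± 0.09 in OVX rats. Those ranges, 0.25 to 0.47 and 0.07 to 0.31, also overlapped. All GDX and OVX libraries were of the shorter fragment class. Intact males averaged 71.5 CPM of Prkcz in the shorter and 75.5 CPM in the longer class, and 61.9 and 58.2 CPM of Prkci. For intact females these values were 74.9 and 77.1 CPM, and 59.4 and 59.3 CPM. How far the class enters the ratio was not tested.

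**Figure D2:**
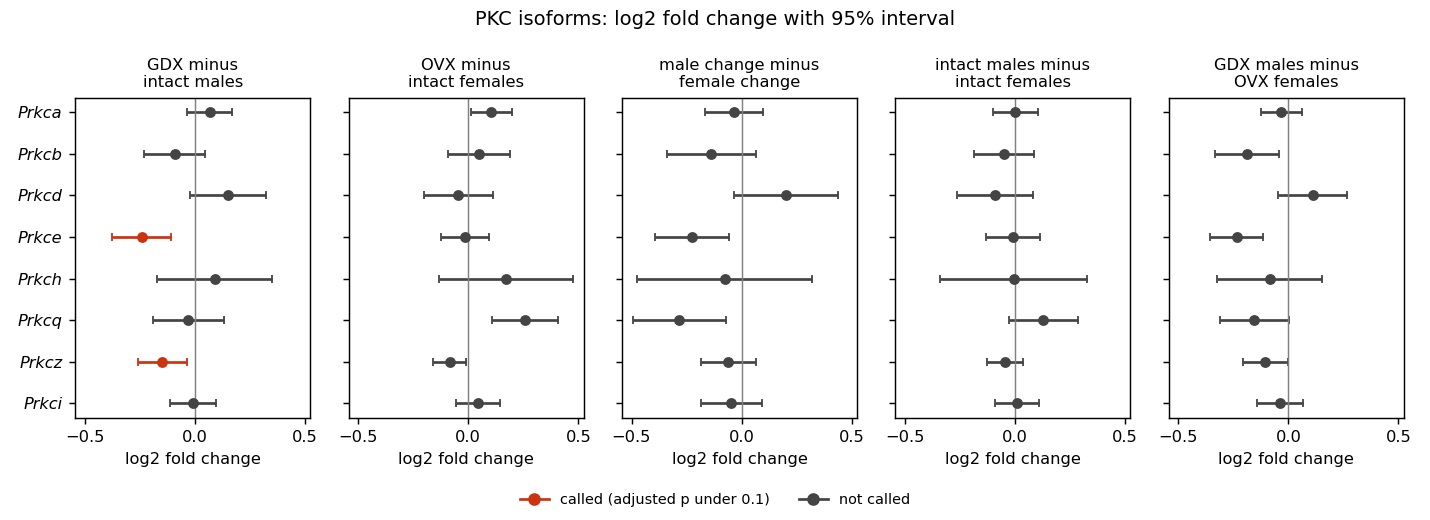
Log2 fold change of each isoform (x axis) in the 5 comparisons, with 95% intervals from edgeR; red points were called at an adjusted p under 0.1. Prkce (-0.24) and Prkcz (-0.15) in GDX against intact males are the called points.

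Ovariectomy was not followed by a called change of any isoform. By edgeR 0 of 8 isoforms were called, with 3 at an unadjusted p under 0.05, and by DESeq2 likewise 0 of 8; over all genes edgeR called 5 of 14910 (0.0335%), with 1516 at an unadjusted p under 0.05. Prkcq came nearest. Its level in intact females ran from 16.8 over a median of 17.9 to 20.7 CPM. In OVX females it ran from 19.1 over a median of 22.03 to 24.5 CPM, and 4 of 6 OVX rats lay above every intact female. The means were 18.2 ± 1.50 CPM and 21.7 ± 1.95 CPM, giving a log2 fold change of 0.26 (SE 0.07, 95% interval 0.11 to 0.41) that missed the threshold (edgeR adjusted p 0.233, DESeq2 adjusted p 0.105). Within the shorter class, where 2 intact females remained, it was 0.27 with an edgeR adjusted p of 0.715.

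Prkca and Prkcz were the others under an unadjusted p of 0.05 in females. Prkca had 64.0 ± 4.25 CPM in intact and 68.7 ± 1.59 CPM in OVX females (log2 fold change 0.10, SE 0.04, edgeR adjusted p 0.432). Prkcz ran from 73.3 over 76.1 to 80.6 CPM in intact females and from 69.6 over 71.4 to 76.1 CPM in OVX females. Of the 6 OVX rats 5 lay under every intact female, a log2 fold change of -0.08 (SE 0.04, 95% interval -0.16 to -0.01, edgeR adjusted p 0.437). Prkce, lower in GDX males, ran from 40.7 over 46.0 to 49.0 CPM in intact females and from 41.5 over 45.1 to 49.0 CPM in OVX females. The female groups overlapped throughout for Prkce, and its interval, -0.12 to 0.10, does not reach the value measured in males.

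Whether the isoforms responded differently in the sexes was tested as the male change minus the female change. By edgeR 0 of 8 isoforms were called, with 2 at an unadjusted p under 0.05, and by DESeq2 0 of 8, beside 18 of 15562 genes (0.116%) by edgeR and 1810 at an unadjusted p under 0.05. The difference of log2 fold changes was -0.23 for Prkce (SE 0.08, 95% interval -0.39 to -0.06, edgeR adjusted p 0.258) and -0.28 for Prkcq (SE 0.10, interval -0.49 to -0.07, adjusted p 0.265). Over 7 alternative fits the difference for Prkcq ran from -0.30 to -0.16. For Prkcz the difference was -0.06 with an interval from -0.18 to 0.06. The call of Prkce and Prkcz in males and its absence in females is thus not shown to be a difference between the sexes.

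Between intact males and intact females no isoform was called. Here 0 of 8 passed the threshold by edgeR, 0 had an unadjusted p under 0.05 and DESeq2 called 0, beside 599 of 14937 genes (4.01%) by edgeR and 2317 at an unadjusted p under 0.05. Prkcq differed most in its log2 fold change, with 19.8 ± 1.74 CPM in males and 18.2 ± 1.50 CPM in females (0.13, SE 0.07, interval -0.03 to 0.29). This difference lay in the longer fragment class, with means of 21.1 CPM in males and 18.3 CPM in females. In the shorter class, with 2 rats of each sex, the means were 17.99 and 17.90 CPM. Over 8 alternative fits the log2 fold change of Prkcq ran from 0.01 to 0.14. For the remaining 7 the log2 fold changes lay between -0.09 (Prkcd) and 0.01 (Prkci), and the interval was narrowest for Prkcz, -0.13 to 0.04. It ran from -0.34 to 0.33 for Prkch and from -0.26 to 0.08 for Prkcd, so that differences as large as the drop of Prkce in GDX males remain possible for these genes and for Prkcq.

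Without gonads the sexes were apart for Prkce on 1 of the tools. GDX males had 38.2 ± 2.73 CPM and OVX females 45.1 ± 2.60 CPM, and 4 of 5 GDX males lay under every OVX female. The log2 fold change of -0.23 (SE 0.06, 95% interval -0.36 to -0.11) missed the threshold by edgeR (adjusted p 0.197) and passed it by DESeq2 (adjusted p 0.0510). All of these libraries belong to the shorter fragment class. Overall edgeR called 0 of 8 isoforms, with 3 at an unadjusted p under 0.05, DESeq2 called 1, and the background by edgeR was 35 of 15084 genes (0.232%), with 1413 at an unadjusted p under 0.05, and by DESeq2 130. The remaining members under an unadjusted p of 0.05 were Prkcb, at 55.6 ± 3.83 CPM in GDX males and 63.5 ± 6.56 CPM in OVX females (log2 fold change -0.19, edgeR adjusted p 0.392), and Prkcz (-0.10, adjusted p 0.518). This comparison and those above share their samples, and the values are given side by side only.

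Genes that act before, beside and after PKC were described from 9 lists holding 107 genes other than the members, of which 101 could be tested in males. Castration moved 23 of them by edgeR, 8 higher and 15 lower (22.8%, against 13.4% of all genes). In females edgeR called 0 of 101, with 12 at an unadjusted p under 0.05, beside 1516 of all 14910 genes, and DESeq2 called 3, Marcks, Plcb1 and Mapk3, of 174 genes in all.

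Of the receptors that feed PKC through Gq and their G proteins, 3 of 11 tested genes were called in GDX males, all lower, and the other 8 were not. The median log2 fold change of this list was -0.25, against 0.00 for all genes and -0.19 for the neuron markers in the same rats. Adra1a, an alpha1 adrenergic receptor, fell from 25.8 ± 1.33 to 20.9 ± 1.78 CPM (log2 fold change -0.31, SE 0.07, edgeR adjusted p 0.0125). Htr2c, a serotonin receptor, fell from 75.5 ± 5.82 to 64.9 ± 5.97 CPM (-0.22, adjusted p 0.0562), while Htr2a, the serotonin receptor most tied to phrenic facilitation, gave -0.10 (SE 0.12, adjusted p 0.691). Gnaq, the G protein subunit, gave -0.06 (SE 0.05).

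Of the 12 phospholipases C that make diacylglycerol 1 was called in GDX males, a share under the 13.4% of all genes. This was Plcb1, the effector of Gq, which fell from 116 ± 6.18 to 97.6 ± 3.77 CPM (log2 fold change -0.25, SE 0.05, edgeR adjusted p 0.00731), whereas 8 of the 12 had a log2 fold change above 0 and the list median was 0.16. Of 9 diacylglycerol kinases, which turn diacylglycerol into phosphatidic acid, 3 fell. These were Dgkq (47.9 ± 3.35 to 38.1 ± 3.87 CPM, -0.33, adjusted p 0.0118), Dgke (40.0 ± 3.08 to 34.1 ± 1.52 CPM, -0.23, adjusted p 0.0291) and Dgkg (17.9 ± 2.93 to 14.2 ± 1.70 CPM, -0.33, adjusted p 0.0744). Among proteins that bind diacylglycerol outside the PKC family, the vesicle-priming factor Unc13a fell from 75.0 ± 4.27 to 60.2 ± 6.00 CPM (-0.32, edgeR adjusted p 0.00855), 1 of 8 tested and no more than the share over all genes.

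Substrates of PKC moved in both directions, with 1 higher and 5 lower of 14 by edgeR in GDX males, beside 13.4% of all genes. DESeq2 called 7, the further gene being Add3, which was higher (log2 fold change 0.11, edgeR adjusted p 0.138). Marcks, an actin-binding protein that leaves the membrane once PKC phosphorylates it, rose from 92.5 ± 3.95 to 112 ± 4.28 CPM (log2 fold change 0.28, SE 0.04, edgeR adjusted p 0.00554). In females Marcks had 93.5 ± 4.81 CPM intact and 107 ± 5.12 CPM after OVX (0.19, edgeR adjusted p 0.150). The lower genes included Add2, a subunit of the membrane skeleton protein adducin (80.9 ± 5.79 to 66.5 ± 4.68 CPM, -0.29, adjusted p 0.00989) and Snap25, a part of the release machinery (843 ± 34.4 to 738 ± 57.8 CPM, -0.20, edgeR adjusted p 0.0370). Snap25 is also in the list of neuron markers.

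Among the kinases related to PKC, Prkd3 (protein kinase D3, a kinase that PKC activates) rose from 21.4 ± 1.15 to 24.5 ± 1.30 CPM (0.19, edgeR adjusted p 0.0681), 1 of 6 tested. Of 20 priming, anchoring and scaffold partners 3 were called. Both counts lie near the 13.4% called over all genes, so that they describe single genes and not the lists. Phlpp2, a phosphatase that removes phosphate from PKC, fell (46.5 ± 1.64 to 40.1 ± 2.77 CPM, -0.22, edgeR adjusted p 0.0272), and the caveolar PKC delta binding protein Cavin3 (6.78 ± 0.874 to 9.11 ± 1.12 CPM, 0.42, adjusted p 0.0434) and the PKC anchor Rack1 (63.9 ± 4.34 to 71.0 ± 2.66 CPM, 0.15, adjusted p 0.0978) rose. Partners of the atypical isoforms, Pard3, Pard6a, Pard6b, Pard6g, Sqstm1 and Wwc1, were not called.

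The arms of phrenic plasticity around PKC held called genes in GDX males, 3 of 12 in the BDNF, TrkB and ERK list and 2 of 9 in the inactivity list, beside 13.4% of all genes. In the BDNF, TrkB and ERK list the ERK kinase Mapk3 rose from 113 ± 4.06 to 136 ± 8.98 CPM (0.26, SE 0.05, edgeR adjusted p 0.00848), the transcription factor Creb1 rose from 13.9 ± 0.520 to 17.2 ± 1.07 CPM (0.30, adjusted p 0.0185), and the kinase Mtor fell from 122 ± 5.18 to 108 ± 10.2 CPM (-0.19, adjusted p 0.0586). Bdnf, at 1.56 CPM in intact and 1.40 CPM in GDX males, gave -0.15 (SE 0.28, adjusted p 0.795), and its receptor Ntrk2 -0.04 (SE 0.05). In the inactivity list, which surrounds the atypical isoforms, both called genes were higher. Aldh1a2, which makes retinoic acid, rose from 7.61 ± 3.73 to 24.7 ± 12.5 CPM (1.70, SE 0.34, adjusted p 0.00970), and the retinoic acid receptor Rarg from 6.25 ± 0.935 to 7.93 ± 0.423 CPM (0.34, edgeR adjusted p 0.0930). Aldh1a2 is also a marker in the meninges and fibroblast list. Tnf was at 0 CPM in the group means and was not tested.

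**Figure D3:**
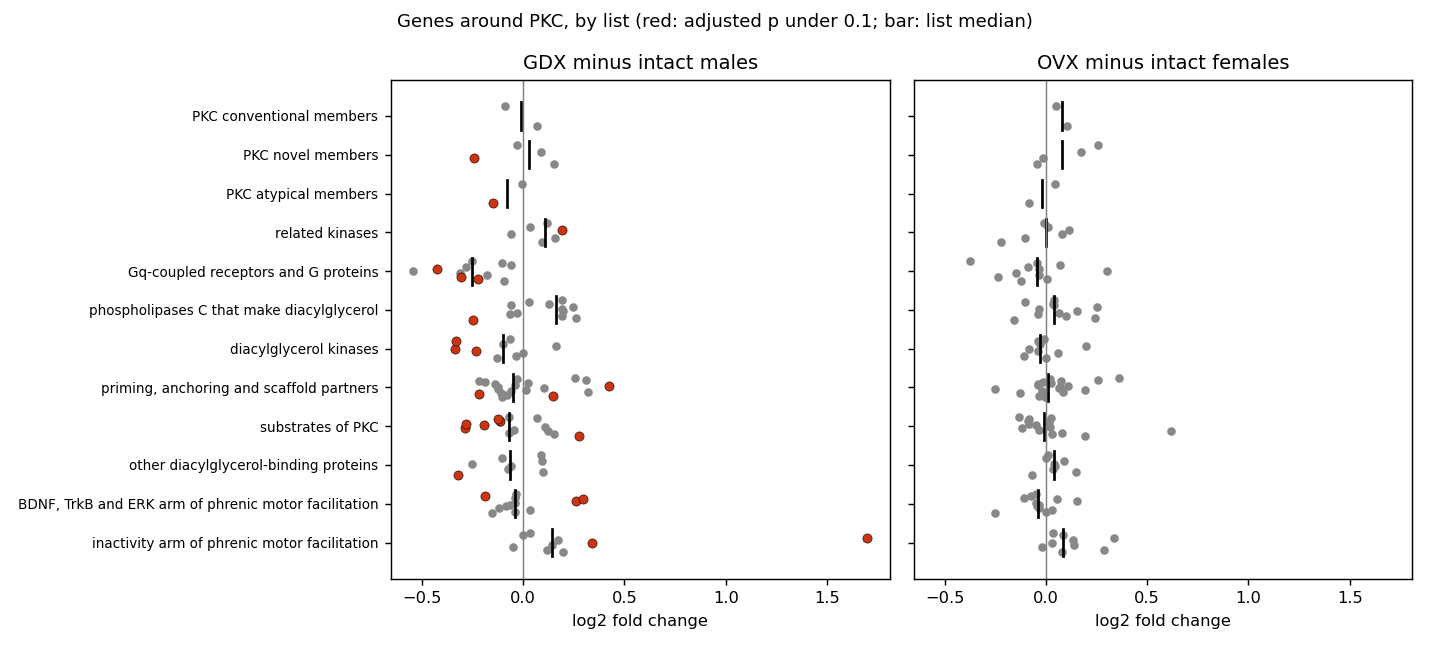
Log2 fold change (x axis) of every tested gene of the PKC lists in males and in females, 1 point for each gene and a bar at the list median; red points were called by edgeR. In males 3 of 11 Gq-coupled receptor and G protein genes and 3 of 9 diacylglycerol kinases are red on the lower side, and the point at 1.70 is Aldh1a2.

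In intact males against intact females, 10 of 101 pathway genes were called by edgeR, 8 higher and 2 lower in males (9.9%, against 4.01% of all genes). The diacylglycerol kinases gave 3 of 9: Dgkz (173 ± 7.69 CPM in males, 144 ± 9.94 CPM in females, log2 fold change 0.26, edgeR adjusted p 0.0104), Dgkq (0.25, adjusted p 0.0239) and Dgka (0.34, adjusted p 0.0367). The PKC-priming kinase Pdpk1 was also higher in males (46.4 ± 1.77 and 41.5 ± 1.90 CPM, 0.16, edgeR adjusted p 0.0739), and so were Htr2c (0.21, adjusted p 0.0886), Snap25, Unc13a and the diacylglycerol-binding exchange factor Rasgrp3. Cavin3 and Aldh1a2 were lower in males, at -0.49 and -1.28. The meninges and fibroblast markers, of which Aldh1a2 is 1, differed in the same comparison, with 5 of 7 tested called lower in intact males by edgeR, a median of -1.28, and sums of 96.3 ± 36.7 CPM in males and 244 ± 106 CPM in females. GDX males against OVX females and the difference between the responses gave 0 called genes by edgeR, of 101 and 102 tested. At an unadjusted p under 0.05 these counts were 16 and 14, beside 1413 of 15084 and 1810 of 15562 genes, and DESeq2 called 2 and 1, of 130 and 243 genes in all.

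Marker levels of other cells moved with castration as well. The meninges and fibroblast list, with 9 of 10 genes in the table, summed to 145, 107, 109.6, 70.5 and 50.2 CPM in the intact males. In the GDX males it summed to 142, 219, 334, 451 and 371 CPM, and all 7 tested genes were called higher by edgeR. Its most abundant gene, Col1a1, averaged 33.3 ± 17.8 and 117 ± 51.3 CPM, and none of the 9 genes was at 0 in all rats. Within groups, over the 22 rats, Prkce and the level of this list had a Pearson's r of -0.246 (permutation p 0.322, adjusted over 88 relations 0.805) and a Spearman's rho of -0.228 (permutation p 0.338, adjusted 0.815), with an r of -0.247 without the 2 rats farthest from the median of the list and of -0.582 in the shorter class. Among GDX males the rats with the most of it had the lowest Prkce, whereas among intact males the rat with the most had the highest Prkce and the rat with the least the lowest. With the level of this list as a term, the log2 fold change of Prkce was -0.22 (SE 0.12, edgeR adjusted p 0.883) and that of Prkcz -0.18 (SE 0.10, adjusted p 0.886), in a fit that called 1 gene in all. Endothelial markers rose too, 6 of 7 called, with a sum of 101 ± 14.5 CPM in intact and 155 ± 19.8 CPM in GDX males and Flt1 as the most abundant gene.

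The endothelial difference was not confined to males. In OVX females edgeR called 2 of 7 endothelial markers higher, Kdr and Cd93, which are 2 of the 5 genes called there in all, and the sum was 121 ± 29.4 CPM in intact and 175 ± 25.6 CPM in OVX females. Erythroid markers were called higher in GDX males for 3 of 3 tested genes by edgeR and for 2, Hba-a2 and Hbb, by DESeq2. Their median log2 fold change was 1.72, with Hba-a2 as the most abundant. Their sum was 15.9, 10.6, 5.81, 5.70 and 8.27 CPM in the intact males and 12.3, 13.1, 61.9, 23.9 and 37.0 CPM in the GDX males. The GDX rats with the most of it were rats 4, 5 and 6, and the groups overlapped. In OVX females 0 of 4 erythroid markers were called by edgeR, with 4 at an unadjusted p under 0.05, and DESeq2 called 1.

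Neuron markers lay lower. Of 8 tested neuron markers all had a log2 fold change under 0 and 2 were called, with a median of -0.19, and their sum was 12188 ± 2122 CPM in intact and 10369 ± 786 CPM in GDX males, with the neurofilament Nefm as the most abundant gene. In OVX females the neuron sum was also lower, 10312 ± 1134 against 12438 ± 1314 CPM in intact females. There edgeR called 0 of 8 neuron markers, with 5 at an unadjusted p under 0.05, and DESeq2 called 3, Stmn2, Nefl and Tubb3. Of 8 astrocyte markers 3 were called higher and 1 lower in GDX males, and the most abundant, Gfap, averaged 3055 ± 191 and 3990 ± 304 CPM. Within groups Prkce ran against the astrocyte list without passing an adjusted p of 0.05, at r -0.601 (permutation p 0.00668, adjusted over 88 relations 0.0980) and rho -0.553 (permutation p 0.00987, adjusted 0.145), with an r of -0.498 without the 2 rats farthest from the median of the list and of -0.417 in the shorter class. No relation of Prkcz with a marker list passed either.

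The motor neuron list held 1 called gene of 10 in GDX males by edgeR, beside 13.4% of all genes. DESeq2 called 2, Chat and Slc18a3, and Chat gave a log2 fold change of -0.27 (edgeR adjusted p 0.110). Slc18a3, the vesicular acetylcholine transporter, fell from 55.7 ± 13.4 to 41.4 ± 5.35 CPM (log2 fold change -0.43, SE 0.13, edgeR adjusted p 0.0542), and the list median was -0.13. In OVX females edgeR called 0 of 10, with 7 at an unadjusted p under 0.05 and a list median of -0.30, and DESeq2 called 2, Ret and Slc18a3. The summed level of the list was 840 ± 103 CPM in intact and 670 ± 108 CPM in OVX females, and the groups overlapped.

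**Figure D4:**
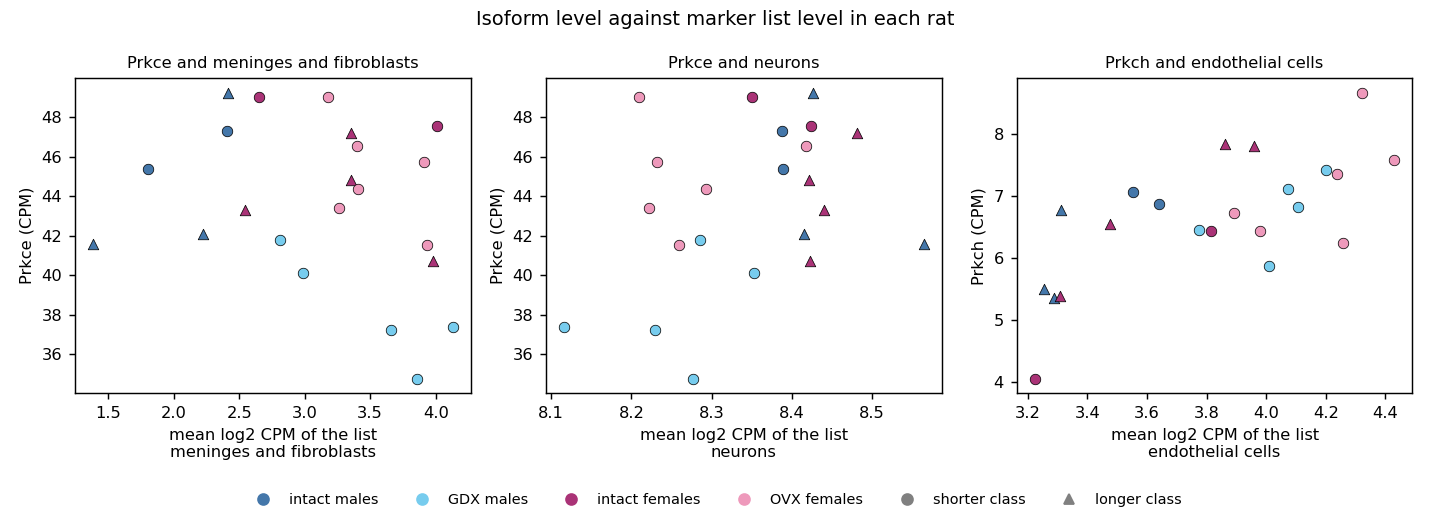
CPM of Prkce against the level (mean log2 CPM) of the list for meninges and fibroblasts and of the list for neurons, and CPM of Prkch against the endothelial list, with 1 point for each of the 22 rats (colour is the group, triangles are the longer fragment class). The 5 GDX males hold Prkce values up to 41.8 CPM, and Prkch rises with the endothelial markers across all groups.

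Within groups, Prkch followed the endothelial markers. After subtraction of group means, log2 CPM of Prkch and the mean of the endothelial list had a Pearson's r of 0.775 over 22 rats (permutation p 0.000260, adjusted over 88 relations of isoforms with marker lists 0.0229) and a Spearman's rho of 0.731 (permutation p 0.000960, adjusted 0.0471). Without the 2 rats farthest from the median of the endothelial level r was 0.697, and within the 15 libraries of the shorter class it was 0.739. Of the 88 relations this was the only one to pass an adjusted p of 0.05 by Pearson's r. Prkcq ran against the endothelial list without passing (r -0.639, adjusted permutation p 0.0917, and rho -0.578, adjusted 0.145). Under 0.1, the level used for genes, r also placed Prkcb with the dorsal horn list (0.634, adjusted permutation p 0.0917) and Prkcd with the astrocyte list (0.630, adjusted 0.0917). Prkce with the astrocyte list, given above, lay under 0.1 too. By rho none of these lay under 0.1. For Prkcb rho was 0.631 (adjusted permutation p 0.133), and r without the 2 rats farthest from the median of its list was 0.533. For Prkcd with the astrocyte list rho was only 0.3296 (adjusted permutation p 0.737), and r without such rats was 0.425. By rho Prkcd with the dorsal horn list passed as well, at rho -0.715 (permutation p 0.00107, adjusted 0.0471) and r -0.680 (permutation p 0.00160, adjusted 0.0704), with an r of -0.619 without the 2 rats farthest from the median of that list and of -0.644 in the shorter class. That list is scarce in this tissue, as its summed level given above shows. The other 86 relations passed an adjusted p of 0.05 by neither measure.

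Among themselves the isoforms did not move as a block. Of 28 pairs 0 passed an adjusted permutation p of 0.05, and r ran from -0.615 to 0.476 with a median of -0.0269. The lowest was that of Prkch with Prkcq, with a permutation p of 0.00424 (adjusted 0.119), a rho of -0.667 (permutation p 0.00223, adjusted 0.0624), an r of -0.809 without the 2 rats farthest from the median of Prkch, and an r of -0.763 in the shorter class. Prkce and Prkcz, both lower after castration, had an r of -0.0768 within groups.

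**Figure D5:**
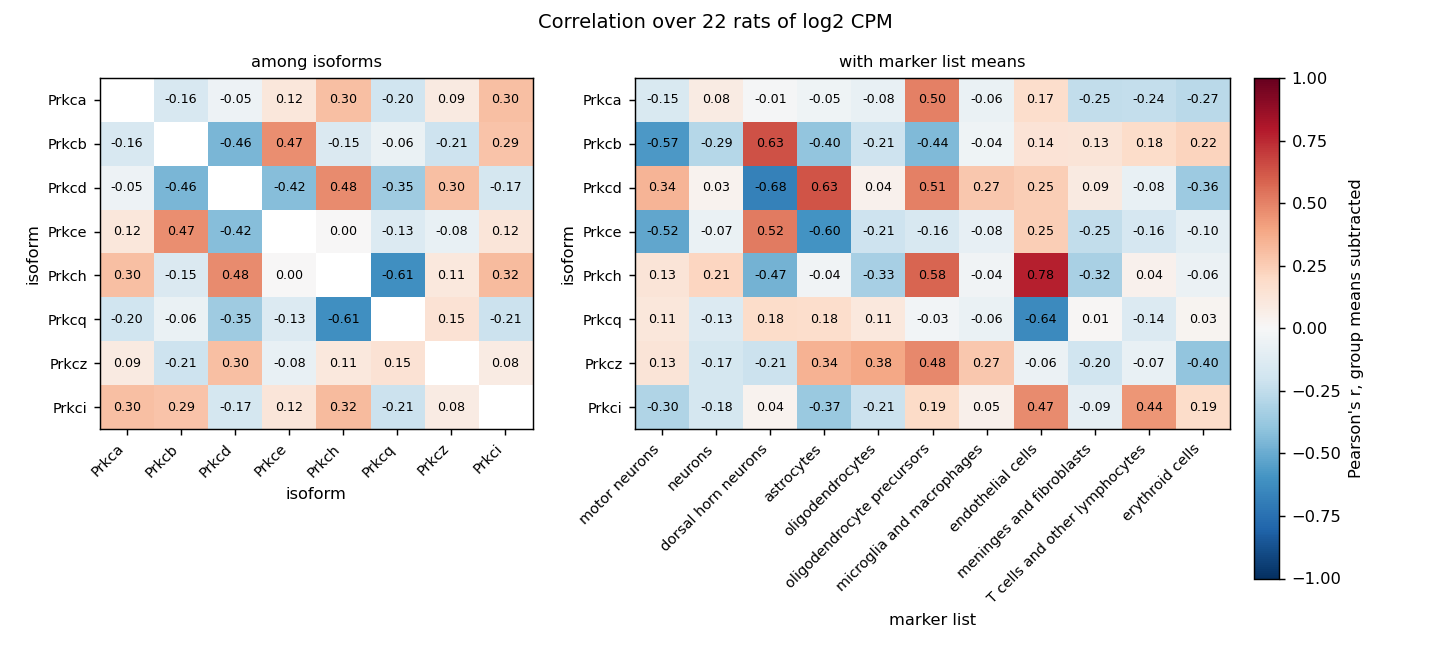
Pearson's r over 22 rats of log2 CPM with group means subtracted, among the 8 isoforms (left) and between the isoforms and the means of 11 marker lists (right). The highest value, 0.78, is that of Prkch with the endothelial list, and the pair Prkch and Prkcq has -0.61.

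The genes most like each isoform were sought among 15562 genes over the same 22 rats with group means subtracted, as a description without a test. For Prkch these were Wasf2 (Pearson's r 0.907) and Lef1 (0.841), an actin regulator and a transcription factor of the Wnt pathway. Prkce was closest to Klhdc10 (0.790) and Ttc9 (0.786), and Prkcz to Plekhn1 (0.785) and Pik3r1, a regulatory subunit of PI3 kinase (0.766). Prkcq was closest to Lsm8 (0.831) and Eif2s3 (0.824), Prkcd to Ddah1 (0.837) and Pxn (0.816), and Prkca to Ctnnd2 (0.820) and Slc12a9 (0.769). For Prkcb they were Pnck (0.796) and NEWGENE_1310561 (0.787), and for Prkci Irf1 (0.855) and Ptges (0.769). NEWGENE_1310561 and Ptges were low, at means of 0.715 and 1.11 CPM. The choice of measure matters: by Spearman's rho Prkcz was closest to Ankrd13a (0.757) and Fnip2 (0.743), whereas Prkci kept both genes. Each value is the highest or next of 15562, and how high such values run among unrelated genes was not tested.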

How the data were processed

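The authors isolated total RNA from the ventral cervical cord, made stranded libraries, sequenced single reads and deposited raw read counts for each gene, which they had obtained with featureCounts of the Subread package on the rat genome Rnor_6.0. Their methods name the SMARTer Stranded Total RNA Pico kit, Trimmomatic and Hisat2, whereas the submitters' notes name TruSeq protocols and TopHat2 version 2.0.13. The strand and overlap settings of the counting are not given in the sources used here, so reads shared with overlapping, antisense or similar genes cannot be told apart. Columns headed Inact were read as intact males.

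From these counts, genes were filtered with filterByExpr, scaled with TMM and tested with the quasi-likelihood test of edgeR (version 4.0.16, R 4.3.3) in the groups compared, with Benjamini-Hochberg adjustment over all genes tested and calls at an adjusted p under 0.1. DESeq2 (version 1.42.0) was an alternative. Others were RLE factors, no filter, the fragment class as a term or restricted to the shorter class, the mean log2 CPM of the meninges list as a term, all 22 rats in 1 fit, a replicate block and leaving out each rat. Standard errors came from the fold change and the F statistic. CPM used TMM-scaled library sizes, and log2 CPM a prior count of 2. Correlations used 100000 permutations within groups, with ranks centred by group for rho. The edgeR fits were tested on simulated data with known fold changes. No 2 libraries of a group agreed within sampling noise. Each library is a separate rat.

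Genes were named by rule: the 8 isoforms; from each list and comparison up to 4 called genes with the smallest adjusted p, and for a list without a call the gene of highest mean CPM; for each isoform the 2 genes of highest r; and markers of the cell lists. Some genes under this rule are not reported here. Htr2a, Gnaq, Bdnf, Ntrk2, Tnf, Add3 and the partners of the atypical isoforms fall outside this rule and were chosen after their values were seen. A symbol on several rows was taken from the row with the highest mean CPM. The members and lists were chosen with earlier results of these data known.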

Additional observations from a re-analysis of the deposited data

Results flagged for a closer look

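In 32 sets of values (8 isoforms in 4 groups), a search for a rat far from the rest of its group found 0, and no isoform had a called difference between the male and female responses.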

How the results depend on the processing

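No isoform changed direction with a call under any alternative. In GDX against intact males the count of called isoforms, 2, was 1 without a filter, 1 with the fragment class as a term, 0 in the shorter class and 0 with the meninges level as a term, and ran from 1 to 2 when 1 rat was left out. Prkce was called in 6 of 8 alternatives, with log2 fold changes from -0.28 to -0.22 and edgeR or DESeq2 adjusted p from 0.0105 to 0.883, and Prkcz in 3 of 8 (-0.18 to -0.10, 0.0309 to 0.886). In GDX males against OVX females the count, 0, was 1 with DESeq2, 1 with the meninges level as a term and 1 with all 22 rats in 1 fit, each time for Prkce. In the other comparisons it was 0 in every alternative, where edgeR without adjustment gave 3 (females), 2 (difference of responses) and 0 (intact sexes) and DESeq2 called 0. The fits in the shorter class hold fewer rats, and the class and meninges terms move with the groups. Why the counts changed was not tested for any alternative. Rat numbers did not pair the rats (correlations of same-numbered rats from -0.077 to 0.031, none best with its own number). With the replicate block the count in males was 2, Prkce (-0.26) and Prkcd (0.21, edgeR adjusted p 0.0954) in place of Prkcz (-0.12, adjusted p 0.278), and it was 0 in the other 4 comparisons.

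Over all genes the calls in males, 1995, were 796 with the class as a term, 440 in the shorter class, 1274 with the replicate block and 1 with the meninges term. In females, 5 became 174 by DESeq2, 11 without a filter, 3 with the class, 0 with the block, 14 with the meninges term and 9 with all rats. For the difference of responses, 18 became 243 by DESeq2, 33 without a filter, 6 with the class, 5 in the shorter class, 0 with the block and 1 with the meninges term. For the intact sexes, 599 became 34 in the shorter class, 255 with the block and 22 with the meninges term, and for GDX males against OVX females, 35 became 130 by DESeq2, 164 with the meninges term and 61 with all rats.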
